A study of Mus musculus with 30 samples.

Results

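The 29 genes described here encode enzymes of cholesterol and fatty acid synthesis, with 3 of their regulators and 1 sterol carrier. They were chosen by gene symbol as targets or regulators of the sterol regulatory element-binding proteins (SREBPs), with no cut on a measured value, although earlier results of these data were known when the list was made. All 29 were found among the 14685 genes of the expression table, and all 29 were among the 14525 genes tested, which exceeded 1 FPKM in at least 1 sample. FPKM, the fragments mapped to a gene scaled by its length and by the size of the library, is a level per length, so that levels can be set side by side between genes.

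RNA was sequenced from 30 samples of mouse E14 embryonic stem cells (ESC) and of cells differentiated from them in culture, in 15 groups of 2 samples. The 3 genotypes were unmodified E14 cells (WT), cells with both copies of Sp1 lacking the DNA-binding domain (Sp1ΔDBD/ΔDBD), and Sp3-/- cells. The 5 populations were ESC in maintenance medium, Flk1+ cells enriched on magnetic columns from embryoid bodies, and 3 populations sorted at day 2 of the blast culture that Flk1+ cells were seeded into. These were hemogenic endothelium before CD41 (HE1, Kit+ Tie2+ CD41-), hemogenic endothelium with CD41 (HE2, Kit+ Tie2+ CD41+) and blood progenitors (Kit+ CD41+ Tie2-). By the study's methods, the time spent as embryoid bodies depended on the cell line. The blast culture medium held less serum than the embryoid body medium. The part of either in the differences described here was not tested. Sp1ΔDBD/ΔDBD cells still make a shortened Sp1 protein. No separate clones are named for either mutant, so an effect of the mutation and one of the cell line cannot be told apart. The comparisons ask how each population differs from WT in a cell that lacks the DNA binding of Sp1, or Sp3, both of which bind GC-rich boxes in promoters.

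Cholesterol is built from acetyl-CoA through mevalonate, isoprenoids, squalene and lanosterol, and fatty acids are built from the same acetyl-CoA. When membrane sterol is low, Scap carries the SREBP precursors (encoded by Srebf1 and Srebf2) from the endoplasmic reticulum to the Golgi, where the proteases encoded by Mbtps1 and Mbtps2 cut them, and the freed domain enters the nucleus and switches on the genes of both pathways. When sterol is plentiful, Insig proteins hold Scap back. Nuclear SREBP binds short sterol regulatory elements (SREs) and is a weak activator alone, and at many of its target promoters it works beside Sp1 or the CCAAT-binding factor NF-Y.

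Sp3 mRNA lay between 3.38 and 7.79 FPKM in the 10 Sp3-/- samples and between 25.9 and 58.1 FPKM in the other 20. The Sp1 allele removes only part of the transcript, so its level is no check of the genotype: mean Sp1 FPKM was 17.6 to 38.3 in the Sp1ΔDBD/ΔDBD groups and 25.2 to 49.8 in the WT groups. Sp3 mRNA was higher in Sp1ΔDBD/ΔDBD HE1 (40.3 and 45.3 FPKM) than in WT HE1 (25.9 and 26.3 FPKM, adjusted p = 0.021, limma). An F test of whether this effect on Sp3 differed among the 5 populations was not passed (adjusted p = 0.402, limma). The difference is therefore not shown to be particular to HE1. The 5 ESC markers summed to between 1086 and 1331 FPKM in ESC and to at most 2.16 FPKM in the blast culture populations, and the 5 hemogenic endothelium markers to between 704 and 1089 FPKM in HE1, against 132 to 215 FPKM in progenitors. The CD41+ markers, the group that includes the CD41 gene Itga2b, summed to 35.8 to 89.3 FPKM in HE1, where the gate takes CD41- cells, and to 108 to 247 FPKM in HE2 and progenitors. Smooth muscle markers were present in the sorted populations and, in each of them, highest in replicate 1 of WT and next in replicate 1 of Sp1ΔDBD/ΔDBD. The samples are bulk RNA, in which fewer cells of a kind and less RNA per cell cannot be told apart, and the read depth behind each value is unknown.

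To show what the promoters of these genes hold, the 250 bases before each annotated start site were read from RefSeq (GRCm38.p6). Windows were matched by symbol for 23 of the 29 genes, with 28 start sites; Sqle, Fdft1, Fdps, Stard4, Scd1 and Scd2 were not analysed here. The letters searched on both strands were GGGCGG (the GC box, which Sp1 and Sp3 bind), CCAAT (the NF-Y box) and TCACNCCAC (a form of the SRE). No match of one motif overlapped a match of another, although a pair of CCAAT matches on opposite strands overlapped in Fasn. In the lines printed here, capitals mark the matches on either strand. Hmgcs1 (chr13:119690101-119690350, plus strand) is shown because its window held all 3 motifs, and Lss (chr10:76531355-76531604, plus strand) because it changed most in Sp1ΔDBD/ΔDBD HE1. Srebf1 (chr11:60210472-60210721, minus strand, the third of its 3 start sites) is the member that fell in Sp1ΔDBD/ΔDBD blast culture cells. Its windows differed: the first held no GC box and 1 CCAAT, and the second held 2 GC boxes and no CCAAT. Pmvk (chr3:89454291-89454540, plus strand, the first of its start sites) stands for windows without a GC box.
Hmgcs1: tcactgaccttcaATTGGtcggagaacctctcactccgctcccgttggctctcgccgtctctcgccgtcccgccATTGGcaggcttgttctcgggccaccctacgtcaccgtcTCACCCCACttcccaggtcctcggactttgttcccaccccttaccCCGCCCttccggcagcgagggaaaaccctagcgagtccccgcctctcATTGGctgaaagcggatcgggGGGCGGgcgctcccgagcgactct
Lss: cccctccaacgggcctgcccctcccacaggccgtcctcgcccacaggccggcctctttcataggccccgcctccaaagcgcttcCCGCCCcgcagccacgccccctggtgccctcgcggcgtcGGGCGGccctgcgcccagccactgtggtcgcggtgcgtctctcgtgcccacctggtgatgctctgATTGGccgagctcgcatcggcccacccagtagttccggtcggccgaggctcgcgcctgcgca
Srebf1: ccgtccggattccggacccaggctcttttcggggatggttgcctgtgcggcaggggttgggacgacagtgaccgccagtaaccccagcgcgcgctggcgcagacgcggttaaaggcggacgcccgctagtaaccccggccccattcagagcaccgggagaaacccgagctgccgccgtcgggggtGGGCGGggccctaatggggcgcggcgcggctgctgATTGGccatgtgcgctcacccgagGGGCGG
Pmvk: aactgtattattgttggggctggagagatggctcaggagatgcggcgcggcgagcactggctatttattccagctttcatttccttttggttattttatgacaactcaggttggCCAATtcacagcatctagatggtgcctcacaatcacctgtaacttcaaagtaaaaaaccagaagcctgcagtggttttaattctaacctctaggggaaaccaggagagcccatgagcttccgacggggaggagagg

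A GC box was present in 21 of the 28 windows (75%), against 55.9% of the 14096 windows of genes in the table. CCAAT was present in 20 of 28 (71.4%), against 35.3%, and the SRE form in 1 of 28 (3.57%, Hmgcs1), against 1.04%. By gene, 19 of the 23 had a GC box in at least 1 window and 19 had CCAAT. Of the 19 genes that were higher in Sp1ΔDBD/ΔDBD HE1 by the test given with them, 15 had a window, of which 13 held a GC box and 12 CCAAT. Of the other 10 genes, 8 had a window, of which 6 held a GC box and 7 CCAAT. Some windows were not purely upstream sequence. Bases annotated as untranslated parts of a transcript made up 250 of the Tm7sf2 window, 232 of the second Dhcr7 window and 214 of the Msmo1 window. The Tm7sf2 window lies inside the annotated gene. So does the only Acaca window, which begins at base 84195188 of chr11, where the gene begins at 84129672. A match describes these letters in this window and is not a measured binding site.

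**Figure D1:**
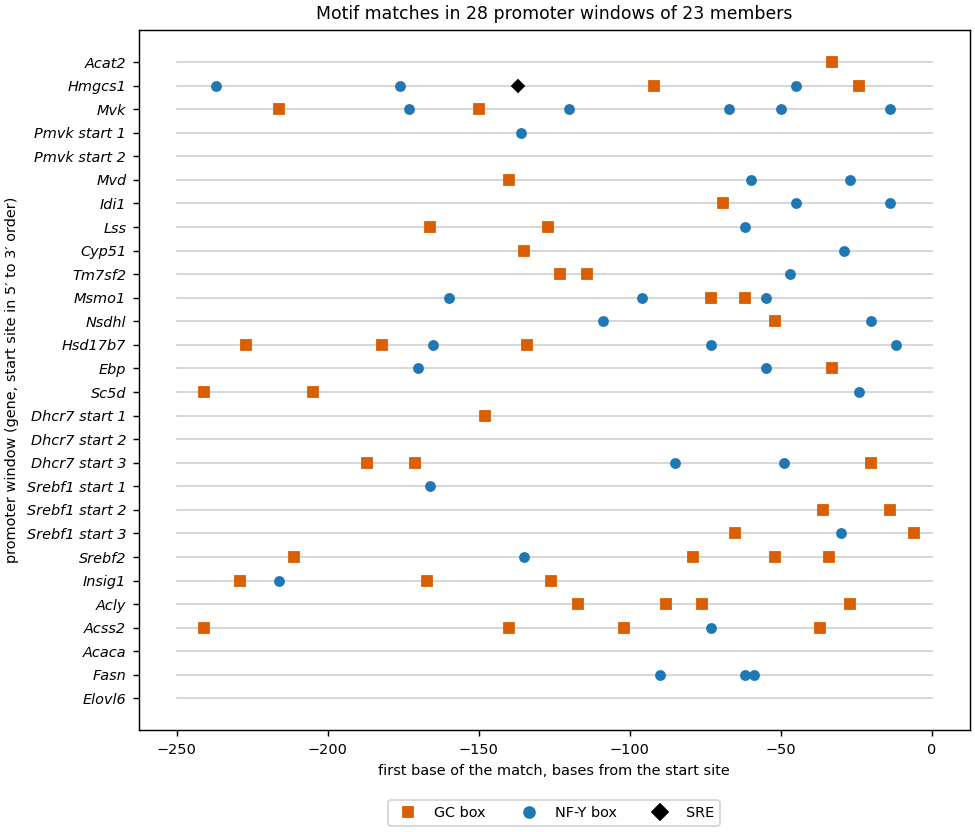
Motif matches in the 28 promoter windows of 23 genes, by the distance of the first matching base from the start site (horizontal axis, in bases, 250 bases before the start site at the left); squares are GC boxes, circles NF-Y boxes and the diamond the SRE form. Both windows of Pmvk, the first of Srebf1, the second of Dhcr7 and those of Acaca, Fasn and Elovl6 hold no GC box. The single SRE match is in Hmgcs1.

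In WT cells, the mean over the 10 samples ran from 2.68 FPKM for Acss2, which makes acetyl-CoA from acetate, to 133 FPKM for Scd2, a fatty acid desaturase. Other genes at the high end were Acly (131 FPKM), which makes acetyl-CoA from citrate, and Fdps (125 FPKM), which makes farnesyl diphosphate. Only Acss2, Hsd17b7 (4.71 FPKM) and Tm7sf2 (5.28 FPKM) lay under the sample median of 7.19 FPKM. By WT group mean, 15 of the 29 were highest in Flk1+ cells, and 11 were lowest in HE1 and 9 in progenitors. In Sp1ΔDBD/ΔDBD cells, 13 were highest in HE1 and 8 in HE2, and 14 were lowest in ESC. In Sp3-/- cells, 10 were highest in Flk1+ cells, and 18 were lowest in ESC. The shares of all genes with the same peaks were not computed, and these ranks were not tested, so the counts are a description only. In WT, the highest group mean was 1.29 (Pmvk and Fasn) to 8.71 (Scd1) times the lowest.

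The first WT step, from ESC to Flk1+ cells, went mostly upward. Of the 29, 11 (37.9%) were higher and 1 (3.45%) lower in Flk1+ cells, where 27.4% of all genes tested were higher and 24.7% lower (limma on log2(FPKM + 0.1), Benjamini-Hochberg adjusted over all genes tested). Stard4, which carries cholesterol between membranes, was at 8.23 and 8.75 FPKM in ESC and at 20.8 and 25.8 FPKM in Flk1+ cells, a log2 difference of 1.44 ± 0.159 (SE, n = 2 per group, adjusted p = 3.39e-07 by limma). Srebf2, the SREBP most tied to sterol synthesis, was at 21.2 and 18.6 FPKM in ESC and at 49.5 and 58.7 FPKM in Flk1+ cells (log2 difference 1.43 ± 0.178, adjusted p = 1.56e-06). Cyp51, which removes a methyl group from lanosterol, rose from 18.6 and 19.0 to 42.0 and 45.8 FPKM (1.22 ± 0.133, adjusted p = 2.98e-07). Acly was the gene called lower, from 152 and 172 to 101 and 112 FPKM (-0.60 ± 0.148, adjusted p = 0.00219). For all 4 genes the samples of the 2 populations did not overlap. Here and in the later comparisons of 2 groups, lack of overlap was part of the rule that picked the genes given with statistics. It is therefore a description and adds no support to a call. With GC content and length corrected for, 13 of the 29 were higher and 5 lower. Fewer genes were called when any 1 of the WT ESC or Flk1+ samples was left out. The median log2 difference of the 29 was then 0.25 to 0.43, against 0.36 with all samples.

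The WT step from Flk1+ cells to HE1 went mostly downward. Of the 29, 14 (48.3%) were lower and 2 (6.9%) higher in HE1, where 29.5% of all genes tested were lower and 23.5% higher. Markers of other cells moved with this step: the smooth muscle markers summed to 6.2 and 4.35 FPKM in WT Flk1+ cells and to 1657 and 341 FPKM in WT HE1, the fibroblast markers to 10.2 and 15.3 against 282 and 35.6 FPKM, and the erythroid markers to 0.718 and 1.45 against 101 and 40.4 FPKM. Replicate 1 of WT HE1 was the highest in each of these sums, and their part in the step was not tested; with only replicate 2 of the WT and Sp1ΔDBD/ΔDBD blast culture populations, 16 genes were lower and 2 higher. Acss2 fell from 3.12 and 2.99 to 0.647 and 0.5 FPKM (log2 difference -2.24 ± 0.381, adjusted p = 6.58e-05), which was -1.37 with a pseudocount of 1. Dhcr7, the last enzyme of cholesterol synthesis, fell from 16.2 and 18.0 to 7.58 and 6.11 FPKM (-1.32 ± 0.159, adjusted p = 1.36e-06). Scd1, a stearoyl-CoA desaturase, fell from 25.7 and 32.8 to 13.0 and 9.1 FPKM (-1.41 ± 0.445, adjusted p = 0.012), a call lost without replicate 2 of WT Flk1+ cells (adjusted p = 0.0831) or of WT HE1 (0.0979). These 3 genes showed no overlap between the populations. Mvk, mevalonate kinase, rose from 10.8 and 10.1 to 24.3 and 17.3 FPKM (0.97 ± 0.21, adjusted p = 0.000722). Srebf1 was at 15.1 and 14.6 FPKM in Flk1+ cells and at 20.3 and 18.9 FPKM in HE1 (0.40 ± 0.162, adjusted p = 0.0447), but no leave-one-out fit kept this call (adjusted p 0.0823 to 0.172).

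From WT HE1 to HE2, 7 of the 29 (24.1%) were higher and 0 lower, where 11.7% of all genes tested were higher and 10.2% lower. At an unadjusted p under 0.05, 8 were higher and 0 lower. The share of all genes at this unadjusted level was not computed, for this count or for those given later. Erythroid markers summed to 101 and 40.4 FPKM in WT HE1 and to 971 and 481 FPKM in WT HE2, and smooth muscle markers to 1657 and 341 against 425 and 66.5 FPKM; their part in this step was not tested, and with only replicate 2 of the WT and Sp1ΔDBD/ΔDBD blast culture populations 7 genes were again higher. Idi1, the isomerase of the isoprenoid units, was at 15.1 and 11.2 FPKM in HE1 and at 32.3 and 21.0 FPKM in HE2 (log2 difference 0.99 ± 0.21, adjusted p = 0.00238). Acaca, which makes malonyl-CoA for fatty acids, was at 19.0 and 15.8 FPKM in HE1 and at 33.5 and 30.6 FPKM in HE2 (0.88 ± 0.144, adjusted p = 0.000289). Tm7sf2, a sterol reductase, was at 3.6 and 4.05 FPKM in HE1 and at 5.37 and 9.39 FPKM in HE2 (0.88 ± 0.255, adjusted p = 0.0188). Each of the 3 was higher in both HE2 samples than in both HE1 samples. Without replicate 1 of WT HE2 the count was 4 and Idi1 lost its call (adjusted p = 0.057), and without replicate 2 of WT HE2 or replicate 1 of WT HE1 Tm7sf2 lost its call (adjusted p = 0.262 and 0.112).

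From WT HE2 to progenitors, 7 of the 29 (24.1%) were lower and 1 (3.45%) higher, where 7.78% of all genes tested were lower and 5.46% higher. Hmgcs1, which makes HMG-CoA, the step before mevalonate, was at 91.2 and 74.3 FPKM in HE2 and at 42.0 and 50.9 FPKM in progenitors (log2 difference -0.83 ± 0.185, adjusted p = 0.00439). Msmo1, a sterol demethylation oxidase, was at 83.5 and 76.3 FPKM in HE2 and at 47.9 and 59.2 FPKM in progenitors (-0.58 ± 0.182, adjusted p = 0.0392), and Stard4 at 20.6 and 17.7 against 13.0 and 13.2 FPKM (-0.54 ± 0.159, adjusted p = 0.0277). Acss2 was higher in progenitors, at 4.97 and 4.08 FPKM against 0.947 and 1.19 FPKM (1.98 ± 0.381, adjusted p = 0.00129). The samples of these 4 genes did not overlap between the populations. The 4 erythroid markers summed to 971 and 481 FPKM in WT HE2 and to 13562 and 4482 FPKM in WT progenitors, and their part in this step was not tested. The main fit takes HE2 and progenitors as independent, although both were sorted from blast culture. With a random term for cultures of one replicate number, 12 genes were lower and 2 higher. The count of 8 fell to 2 without replicate 1 of WT HE2, to 2 without replicate 1 of WT progenitors, and to 2 with only replicate 2 of the WT and Sp1ΔDBD/ΔDBD blast culture populations; with that last setting all 4 named calls were lost (adjusted p 0.101 to 0.475).

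Of the 5 populations, HE1 had the most genes that differed between Sp1ΔDBD/ΔDBD and WT cells. In Sp1ΔDBD/ΔDBD HE1, 19 of the 29 genes (65.5%) were higher and 1 (3.45%) was lower than in WT HE1, where 5.69% of all genes tested were higher and 4.35% lower. The median log2 difference of the 29 was 0.87, against 0.02 over all genes tested, and 25 of the 29 had a difference above 0. The rise covered the steps of sterol synthesis: 4 of the 7 mevalonate and isoprenoid genes (Acat2, Hmgcs1, Mvd and Idi1), 3 of the 3 from squalene to lanosterol (Fdft1, Sqle and Lss) and 6 of the 8 from lanosterol to cholesterol (Cyp51, Tm7sf2, Msmo1, Nsdhl, Sc5d and Dhcr7). It also took in Insig1, Stard4 and Acss2, and 3 of the 5 fatty acid genes (Acaca, Scd2 and Elovl6). Summed over the 18 genes of the sterol steps, the level was 551 and 541 FPKM in WT HE1 and 1154 and 1044 FPKM in Sp1ΔDBD/ΔDBD HE1.

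Lss, lanosterol synthase, which folds squalene epoxide into the first sterol, was at 8.47 and 7.21 FPKM in WT HE1 and at 31.6 and 27.3 FPKM in Sp1ΔDBD/ΔDBD HE1. The log2 difference was 1.90 ± 0.162 (SE, n = 2 per group), 3.72-fold (adjusted p = 4.38e-07, limma). Lss shares 11268 bases with a gene on the opposite strand, 4930483K19Rik, and the authors ran alignment and quantification with default settings, which set no strand option, so unspliced reads of both genes cannot be told apart. Idi1 was at 15.1 and 11.2 FPKM in WT and at 45.9 and 45.1 FPKM in the mutant (log2 difference 1.80 ± 0.21, adjusted p = 1.74e-05). Tm7sf2 was at 3.6 and 4.05 FPKM in WT and at 15 and 11.7 FPKM in the mutant (1.77 ± 0.255, adjusted p = 0.00018). Hmgcs1, whose window held an SRE, 2 GC boxes and 3 NF-Y boxes, was at 88.6 and 84.6 FPKM in WT and at 226 and 284 FPKM in the mutant (1.55 ± 0.185, adjusted p = 2.27e-05). For these 4 genes both mutant samples were above both WT samples. The other genes that rose did so by 0.53 (Stard4, adjusted p = 0.039) to 1.35 (Nsdhl, adjusted p = 2.38e-05) on the log2 scale.

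Srebf1 moved the other way. Its level was 20.3 and 18.9 FPKM in WT HE1 and 11.1 and 8.3 FPKM in Sp1ΔDBD/ΔDBD HE1, with no overlap (log2 difference -1.02 ± 0.162, adjusted p = 0.000461). Srebf2 was at 35.6 and 31.8 FPKM in WT and at 33.9 and 39.8 FPKM in the mutant, which overlapped, and its log2 difference was 0.13 with a 95% interval from -0.25 to 0.50. Of the genes not called in HE1, Fdps was at 117 and 121 FPKM in WT and at 222 and 161 FPKM in the mutant, and Scd1 at 13.0 and 9.1 against 30.1 and 19.9 FPKM. Pmvk, phosphomevalonate kinase, Ebp, a sterol isomerase, and Acly had log2 differences below 0 in HE1 that did not pass the test.

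The HE1 samples also differed in markers of other cells. The 3 smooth muscle markers summed to 1657 and 341 FPKM in WT HE1 and to 972 and 243 FPKM in Sp1ΔDBD/ΔDBD HE1, the 4 fibroblast markers to 282 and 35.6 against 127 and 13.3 FPKM, and the 4 erythroid markers to 101 and 40.4 against 20.4 and 9.26 FPKM. In replicate 2 each of these sums was lower than in replicate 1, but still higher in WT than in the mutant. With only replicate 2 of the WT and Sp1ΔDBD/ΔDBD blast culture populations, the median log2 difference in HE1 was 0.80. That fit compares 1 sample with 1, and the part of these other cells in the HE1 differences was not tested. When the 6 HE1 samples were fitted without the other populations, 10 members passed the adjusted test and 22 had an unadjusted p under 0.05. Srebf1 was not called in that fit (adjusted p = 0.0678, limma), nor in HE2 (0.125) or progenitors (0.0573) fitted alone.

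**Figure D2:**
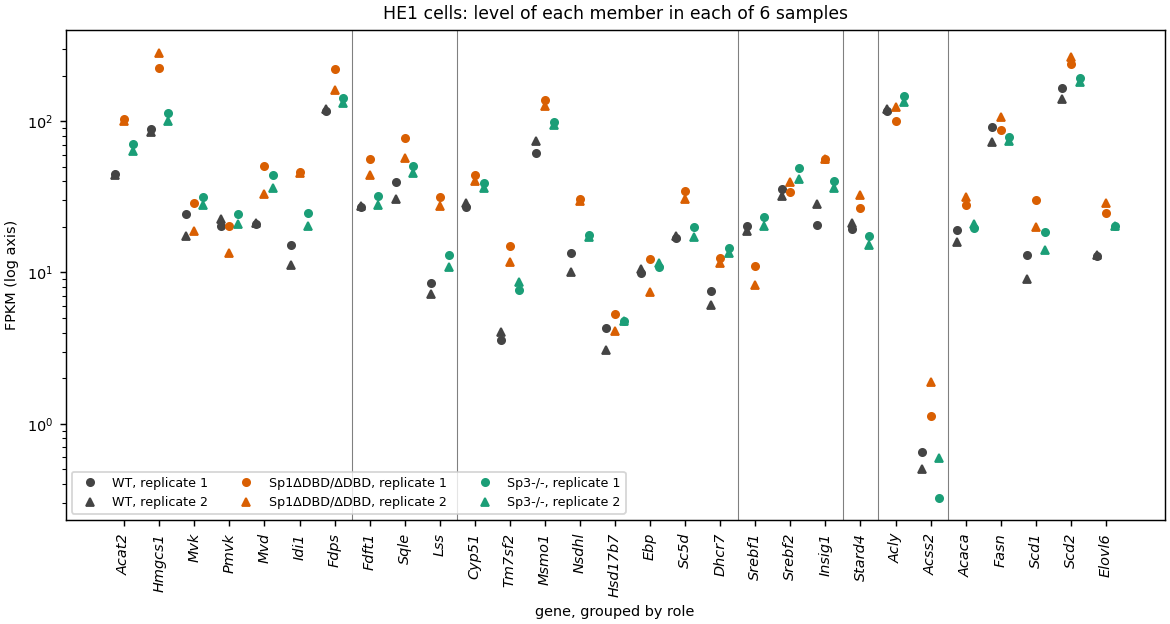
Level of each of the 29 genes in the 6 HE1 samples (vertical axis, FPKM on a log scale), with WT in grey, Sp1ΔDBD/ΔDBD in orange and Sp3-/- in green, circles for replicate 1 and triangles for replicate 2, and lines between the roles. Both Sp1ΔDBD/ΔDBD points of Hmgcs1 (226 and 284 FPKM), Idi1 (45.9 and 45.1 FPKM) and Lss (31.6 and 27.3 FPKM) sit above the other 4 samples, and those of Srebf1 sit lowest.

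In HE2, 12 of the 29 genes (41.4%) were higher and 1 (3.45%) was lower in Sp1ΔDBD/ΔDBD than in WT, where 4.7% of all genes tested were higher and 4.97% lower. The median log2 difference was 0.48, against 0.04 over all genes tested. Of the sterol steps, 8 genes were called (Acat2, Hmgcs1, Idi1, Fdft1, Lss, Tm7sf2, Nsdhl and Sc5d), with Insig1, Scd1, Scd2 and Elovl6. Lss was at 9.84 and 9.57 FPKM in WT and at 30.4 and 20.0 FPKM in the mutant (log2 difference 1.34 ± 0.162, adjusted p = 2.74e-05), and Hmgcs1 at 91.2 and 74.3 against 191 and 182 FPKM (1.18 ± 0.185, adjusted p = 0.000427). Scd1 was at 8.66 and 4.53 FPKM in WT and at 25.9 and 12.1 FPKM in the mutant (1.48 ± 0.445, adjusted p = 0.0408), and lost its call without replicate 2 of WT (0.265) or replicate 1 of the mutant (0.255). Srebf1 was at 16.4 and 23.9 FPKM in WT and at 10.8 and 9.35 FPKM in the mutant (-0.97 ± 0.162, adjusted p = 0.000737). In each of these genes the 2 genotypes did not overlap. The mutant samples of HE2 were uneven: the 18 sterol-step genes summed to 1161 FPKM in replicate 1 and 859 FPKM in replicate 2, against 697 and 613 FPKM in WT, and without replicate 1 of the mutant the count of 13 fell to 7. Smooth muscle markers summed to 425 and 66.5 FPKM in WT and to 357 and 34.3 FPKM in the mutant, and their part in these differences was not tested. With only replicate 2 of these groups, the median log2 difference was 0.44. With HE2 fitted alone 1 passed the adjusted test and 16 had an unadjusted p under 0.05.

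In progenitors, 6 of the 29 (20.7%) were higher in Sp1ΔDBD/ΔDBD and 1 (3.45%) lower, where 3.75% of all genes tested were higher and 5.04% lower, and the median log2 difference was 0.24, against 0.05. The 6 were Hmgcs1, Idi1, Fdft1, Lss, Nsdhl and Sc5d, which also passed in HE1 and HE2. Hmgcs1 was at 42.0 and 50.9 FPKM in WT and at 88.7 and 100 FPKM in the mutant (log2 difference 1.03 ± 0.185, adjusted p = 0.00164). Fdft1, squalene synthase, was at 18.4 and 19.7 FPKM in WT and at 42.6 and 31.0 FPKM in the mutant (0.93 ± 0.157, adjusted p = 0.001). Idi1 was at 20.9 and 19.8 FPKM in WT and at 45.9 and 33.0 FPKM in the mutant (0.93 ± 0.21, adjusted p = 0.00877), and lost its call without replicate 1 of the mutant (adjusted p = 0.113), without replicate 2 of WT (0.0508) and with only replicate 2 of both (0.0963). Srebf1 fell again, from 25.9 and 27.4 to 12.0 and 14.5 FPKM (-1.0 ± 0.162, adjusted p = 0.000658). None of these 4 genes overlapped between the genotypes. Smooth muscle markers summed to 257 and 74.9 FPKM in WT and to 138 and 18.8 FPKM in the mutant, and erythroid markers to 13562 and 4482 against 9596 and 7224 FPKM. The part of these cells in the differences was not tested. With only replicate 2 of these groups, 4 members were higher and 1 lower; without replicate 1 of the mutant the count of 7 fell to 4, and with progenitors fitted alone 0 passed the adjusted test, while 13 had an unadjusted p under 0.05.

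The 3 blast culture populations shared part of their variation in WT and Sp1ΔDBD/ΔDBD: the departures of samples with one replicate number from their group mean correlated at 0.352 to 0.427 across genes between WT populations and at 0.408 to 0.612 between Sp1ΔDBD/ΔDBD populations, but at 0.0349 to 0.154 between Sp3-/- populations. Genes share a sample, so these correlations are given as a description.

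Before blast culture few of these genes differed between Sp1ΔDBD/ΔDBD and WT cells. In ESC, 1 of the 29 (3.45%) was higher and 1 (3.45%) lower, where 2.8% of all genes tested were higher and 3.26% lower. Srebf2 was at 21.2 and 18.6 FPKM in WT ESC and at 35.1 and 29.2 FPKM in Sp1ΔDBD/ΔDBD ESC (log2 difference 0.68 ± 0.178, adjusted p = 0.0272), with no overlap; the call was lost without replicate 1 (adjusted p = 0.0543) or replicate 2 (0.197) of WT, or replicate 1 of the mutant (0.212). Elovl6, which lengthens palmitate, was at 27.8 and 30.6 FPKM in WT and at 19.0 and 20.9 FPKM in the mutant, again with no overlap (-0.55 ± 0.108, adjusted p = 0.00424), and was not called without replicate 2 of WT (0.0601) or replicate 1 of the mutant (0.0542). In Flk1+ cells 0 of 29 passed in either direction by limma, where 2.92% of all genes tested were higher and 2.62% lower. At an unadjusted p under 0.05, 0 were higher and 8 lower there, counts with no share of all genes beside them. Hmgcs1 was at 143 and 163 FPKM in WT Flk1+ cells and at 139 and 210 FPKM in the mutant, and Lss at 16.4 and 18.9 against 17.5 and 23.2 FPKM, so that the genotypes overlapped in both genes.

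**Figure D3:**
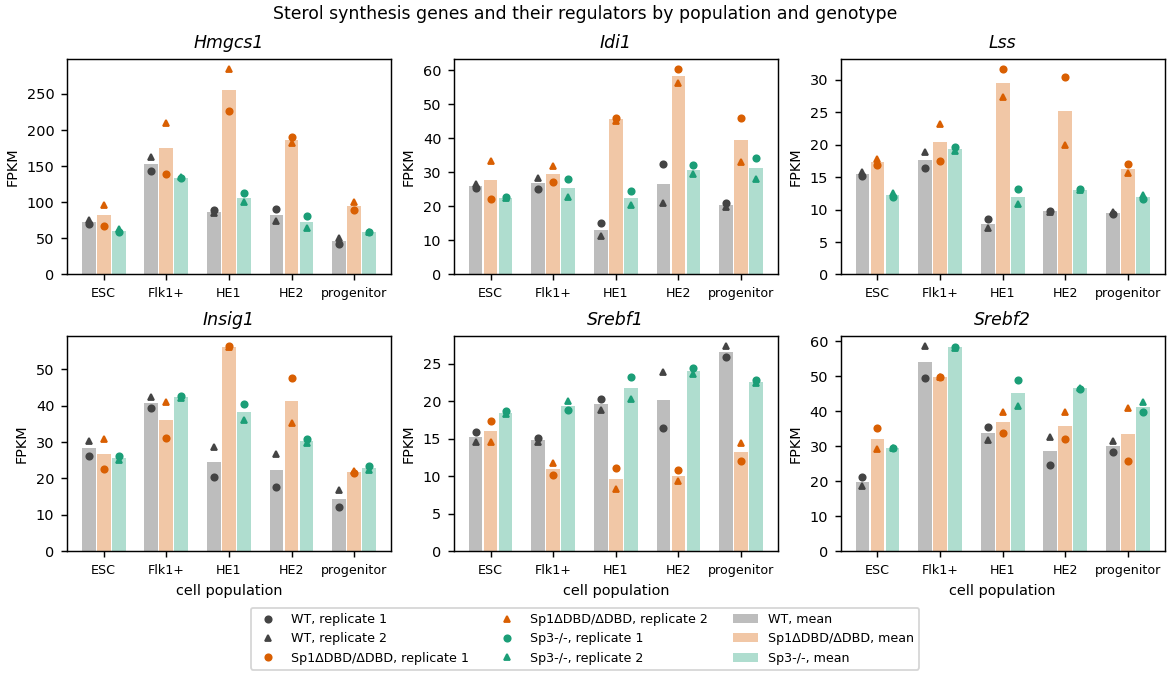
FPKM of 6 genes by population (horizontal axis) and genotype (bars are means of 2 samples, points the samples). In HE1, HE2 and progenitors both Sp1ΔDBD/ΔDBD points of Hmgcs1, Idi1 and Lss lie above the WT points and both of Srebf1 below them, while in ESC and Flk1+ cells the Hmgcs1 points of the 2 genotypes overlap.

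Averaged over the 5 populations with equal weight, 17 of the 29 genes (58.6%) were higher and 3 (10.3%) lower in Sp1ΔDBD/ΔDBD, where 17.5% of all genes tested were higher and 14.4% lower, and the median log2 difference was 0.29, against 0.03. Acss2 had the highest average difference, 0.96 ± 0.17 (SE, adjusted p = 0.000274, limma). Its mutant samples lay above its WT samples in all 5 populations, from 1.12 and 1.89 against 0.647 and 0.5 FPKM in HE1 to 9.74 and 10.3 against 4.97 and 4.08 FPKM in progenitors. Acss2 overlaps Gss (22544 bases) and Ggt7 (290 bases) on the opposite strand. Tm7sf2 followed with 0.88 ± 0.114 (adjusted p = 9.65e-06) and Lss with 0.87 ± 0.0726 (adjusted p = 4.46e-08). Srebf1 was lower on average by -0.67 ± 0.0724 (adjusted p = 1.18e-06), Pmvk by -0.53 ± 0.123 (adjusted p = 0.00274) and Acly by -0.33 ± 0.0663 (adjusted p = 0.00091).

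Whether the Sp1 effect differed among the populations was tested by an F test of the 4 differences between populations. Of the 29 genes, 13 passed (adjusted over all genes tested), where 4.62% of all genes tested did. They were Acat2, Hmgcs1, Mvd, Idi1, Lss, Cyp51, Msmo1, Nsdhl, Dhcr7, Srebf1, Insig1, Scd2 and Elovl6. In 11 of them the log2 difference was highest in HE1; the exceptions were Srebf1, which was lowest in HE1 (-1.02), and Scd2, which was highest in HE2 (0.76). The log2 difference of Lss was 1.90 in HE1, 1.34 in HE2 and 0.77 in progenitors, against 0.16 in ESC and 0.19 in Flk1+ cells. Elovl6 changed direction, from -0.55 in ESC to 1.04 in HE1. Without replicate 2 of WT Flk1+ cells, 8 passed.

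Sp3-/- cells were compared with the same WT samples, so the 2 mutant comparisons share their controls. In Sp3-/- HE1, 10 of the 29 genes (34.5%) were higher and 0 lower, where 6.02% of all genes tested were higher and 4.87% lower; at an unadjusted p under 0.05, 14 were higher and 0 lower. The median log2 difference was 0.42, against 0.05. The 10 were Acat2, Mvd, Idi1, Lss, Cyp51, Tm7sf2, Nsdhl, Dhcr7, Insig1 and Elovl6. Dhcr7 was at 7.58 and 6.11 FPKM in WT and at 14.5 and 13.4 FPKM in Sp3-/- (log2 difference 1.02 ± 0.159, adjusted p = 0.000582). Tm7sf2 was at 3.6 and 4.05 FPKM in WT and at 7.68 and 8.65 FPKM in Sp3-/- (1.07 ± 0.255, adjusted p = 0.0112), and lost its call without replicate 1 of WT (0.0875) or replicate 2 of Sp3-/- (0.106). Mvd, which makes isopentenyl diphosphate, was at 21.0 and 21.2 FPKM in WT and at 44.1 and 36.3 FPKM in Sp3-/- (0.92 ± 0.202, adjusted p = 0.00716), and lost its call without replicate 1 of Sp3-/- (0.0769). In these 3 genes both Sp3-/- samples were above both WT samples.

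In the same HE1 samples Hmgcs1 was at 113 and 100 FPKM in Sp3-/-, against 88.6 and 84.6 FPKM in WT, a log2 difference of 0.30 with a 95% interval from -0.09 to 0.69. Srebf1 was at 23.2 and 20.3 FPKM in Sp3-/- HE1 and at 20.3 and 18.9 FPKM in WT, and its log2 difference of 0.15 (95% interval from -0.19 to 0.48) did not pass the test. Smooth muscle markers summed to 188 and 112 FPKM in Sp3-/- HE1, against 1657 and 341 FPKM in WT, fibroblast markers to 27.7 and 19.0 against 282 and 35.6 FPKM, and CD41+ markers to 89.3 and 87.1 against 35.8 and 50.1 FPKM. The part of these cells in the HE1 differences of Sp3-/- was not tested. With only replicate 2 of the WT and Sp1ΔDBD/ΔDBD blast culture populations the HE1 count was 12. Without replicate 2 of WT the count of 10 fell to 6, without replicate 1 of Sp3-/- to 3 and without replicate 2 of Sp3-/- to 4. With HE1 fitted alone 0 passed the adjusted test, and 12 had an unadjusted p under 0.05.

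In Sp3-/- HE2, 3 of the 29 (10.3%) were higher and 1 (3.45%) lower, where 6.97% of all genes tested were higher and 6.84% lower, and the median log2 difference was 0.19, against 0.03. Dhcr7 was at 11.9 and 9.61 FPKM in WT and at 16.9 and 17.5 FPKM in Sp3-/- (log2 difference 0.68 ± 0.159, adjusted p = 0.00894). Srebf2 was at 24.6 and 32.7 FPKM in WT and at 46.3 and 46.8 FPKM in Sp3-/- (0.71 ± 0.178, adjusted p = 0.0128), Mvd at 25.8 and 23.7 against 37.7 and 39.6 FPKM (0.64 ± 0.202, adjusted p = 0.0398) and Stard4, lower, at 20.6 and 17.7 against 12.6 and 11.2 FPKM (-0.68 ± 0.159, adjusted p = 0.00899). The genotypes did not overlap in any of these 4 genes. Each of the 4 calls was lost without at least 1 sample: Dhcr7 without replicate 2 of WT (0.0734) or of Sp3-/- (0.0744), Srebf2 without replicate 1 of WT (0.183) or either Sp3-/- sample (0.0605 and 0.0832), Stard4 without replicate 1 of WT (0.106) or replicate 2 of Sp3-/- (0.0946), and Mvd without any 1 of the 4 (0.112 to 0.177). With GC content and length corrected for (Spearman rho of the fold changes with GC content 0.337), Mvd differed by 0.39 and was not called (adjusted p = 0.106), and Stard4 differed by -0.44 (0.0279). The count fell to 1 without replicate 1 of WT, to 2 without replicate 1 of Sp3-/- and to 0 without replicate 2 of Sp3-/-, where 5 had an unadjusted p under 0.05. Smooth muscle markers summed to 135 and 112 FPKM in Sp3-/- HE2, against 425 and 66.5 FPKM in WT, and fibroblast markers to 19.6 and 15.6 against 48.9 and 9.05 FPKM. Their part in these differences was not tested. With only replicate 2 of the WT and Sp1ΔDBD/ΔDBD blast culture populations, the median log2 difference was 0.18. In that fit Stard4 lost its call (-0.57, adjusted p = 0.0883). With HE2 fitted alone 0 passed, and 4 had an unadjusted p under 0.05.

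In Sp3-/- progenitors, 4 of the 29 (13.8%) were higher and 0 lower, where 3.88% of all genes tested were higher and 4.77% lower. At an unadjusted p under 0.05, 15 were higher and 2 lower, with no share of all genes at that level to set beside them. The median log2 difference was 0.35, against 0.04. Mvk was at 13.8 and 14.1 FPKM in WT and at 24.6 and 24.1 FPKM in Sp3-/- (log2 difference 0.80 ± 0.21, adjusted p = 0.0235). Insig1 was at 12.1 and 16.7 FPKM in WT and at 23.5 and 22.2 FPKM in Sp3-/- (0.68 ± 0.206, adjusted p = 0.0466), Dhcr7 at 9.87 and 7.39 against 12.1 and 14.4 FPKM (0.62 ± 0.159, adjusted p = 0.0206) and Acat2, the thiolase that starts the pathway, at 41.9 and 57.3 against 73.1 and 75.2 FPKM (0.60 ± 0.133, adjusted p = 0.00897). The Sp3-/- samples were above the WT samples in all 4. Mvk lost its call without any 1 of the 4 samples (0.081 to 0.127), Insig1 without replicate 1 of WT (0.326) or either Sp3-/- sample (0.22 and 0.133), and Dhcr7 without replicate 2 of WT (0.206) or of Sp3-/- (0.175). The count fell to 1 and 2 without WT replicates 1 and 2, and to 1 and 0 without Sp3-/- replicates 1 and 2; with 0, 11 had an unadjusted p under 0.05. With progenitors fitted alone 0 passed, and 11 had an unadjusted p under 0.05. Erythroid markers summed to 1496 and 3427 FPKM in Sp3-/- progenitors, against 13562 and 4482 FPKM in WT, and smooth muscle markers to 55.5 and 67.1 against 257 and 74.9 FPKM. Their part in these differences was not tested; with only replicate 2 of the WT and Sp1ΔDBD/ΔDBD blast culture populations 6 genes were higher, and Insig1 lost its call (0.45, adjusted p = 0.121).

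In ESC, more of the genes were lower in Sp3-/- than higher. Of the 29, 2 (6.9%) were higher and 5 (17.2%) lower in Sp3-/- ESC, where 5.4% of all genes tested were higher and 5.91% lower, and the median log2 difference was -0.20, against -0.02. The genes that were lower were the pair that supplies acetyl-CoA, Acly and Acss2, and 3 of the 5 fatty acid genes, Acaca, Scd2 and Elovl6. Scd2 was at 104.0 and 111 FPKM in WT and at 64.3 and 67.8 FPKM in Sp3-/- (log2 difference -0.70 ± 0.147, adjusted p = 0.0049), and Acaca at 36.5 and 35.8 against 21.9 and 23.6 FPKM (-0.66 ± 0.144, adjusted p = 0.00572). Acss2 was at 4.78 and 3.58 FPKM in WT and at 1.47 and 1.92 FPKM in Sp3-/- (-1.25 ± 0.381, adjusted p = 0.04). Mvk rose from 8.35 and 7.74 to 13.4 and 13.4 FPKM (0.73 ± 0.21, adjusted p = 0.031) and Srebf2 from 21.2 and 18.6 to 29.5 and 29.6 FPKM (0.57 ± 0.178, adjusted p = 0.0455). None of these 5 genes overlapped between the genotypes.
The fold changes of Sp3-/- ESC followed the GC content of the genes (Spearman rho 0.463 across 14405 genes, given as a description). With GC content and length corrected for, the median log2 difference of the 29 was -0.06, against 0.02 over all genes, 4 of the 29 were called, and Mvk (0.55, adjusted p = 0.0939), Srebf2 (0.30, 0.131) and Acss2 (-1.13, 0.0796) were not. Without any 1 of the 4 samples Mvk, Srebf2 and Acss2 lost their calls as well (adjusted p 0.0726 to 0.249). Without replicate 1 of Sp3-/- 0 of the 29 passed, while 8 had an unadjusted p under 0.05, and Scd2 and Acaca had adjusted p = 0.0577 and 0.0706. The count was 3 without replicate 1 of WT, and 2 without replicate 2 of WT or of Sp3-/-.

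In Sp3-/- Flk1+ cells, 1 of the 29 (3.45%) was higher and 2 (6.9%) lower, where 6.69% of all genes tested were higher and 5.94% lower. Mvk was at 10.8 and 10.1 FPKM in WT and at 19.8 and 19.1 FPKM in Sp3-/- (log2 difference 0.89 ± 0.21, adjusted p = 0.00949). Acss2 was at 3.12 and 2.99 FPKM in WT and at 0.786 and 1.04 FPKM in Sp3-/- (-1.65 ± 0.381, adjusted p = 0.00835, or -1.09 with a pseudocount of 1), and Stard4 at 20.8 and 25.8 against 12.9 and 13.1 FPKM (-0.83 ± 0.159, adjusted p = 0.00256). The samples of the genotypes stood apart in all 3. Without replicate 2 of WT 0 passed (3 with an unadjusted p under 0.05), and without replicate 1 of Sp3-/- only Stard4 did. Acss2 was also not called without replicate 1 of WT (adjusted p = 0.0528).

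**Figure D4:**
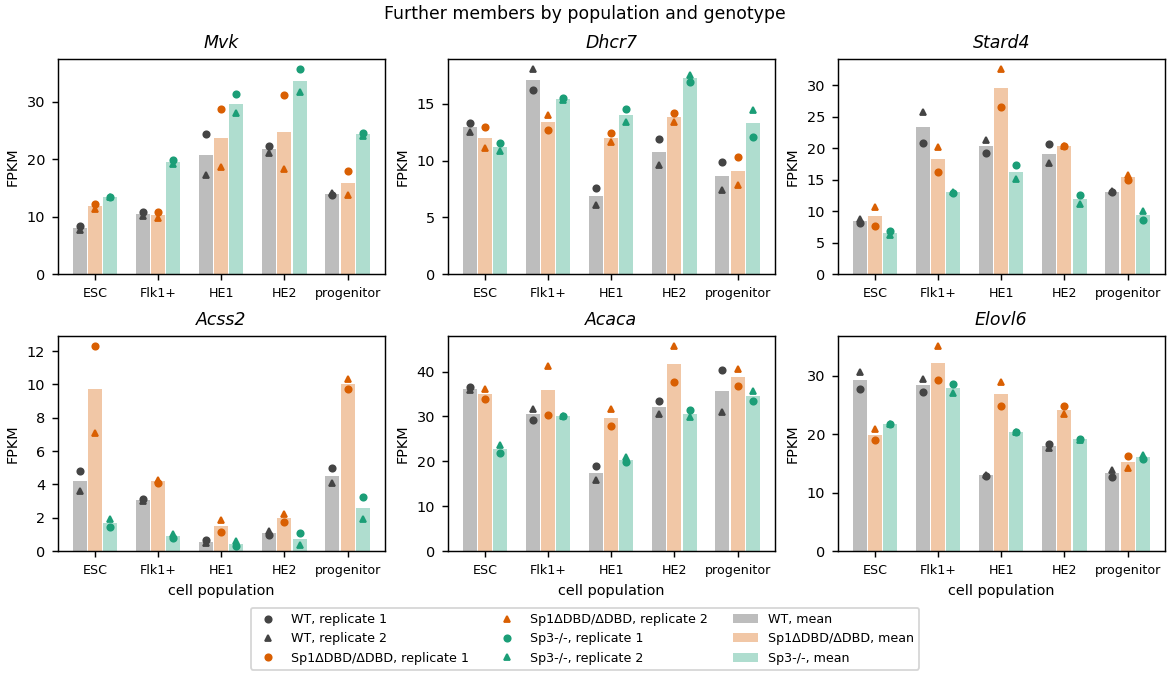
FPKM of Mvk, Dhcr7, Stard4, Acss2, Acaca and Elovl6 by population (horizontal axis) and genotype (bars are means of 2 samples, points the samples). Both Sp3-/- points of Mvk lie above the WT points and both of Stard4 below them in all 5 populations, while Acss2 is lower in Sp3-/- and higher in Sp1ΔDBD/ΔDBD than in WT in ESC and Flk1+ cells.

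Averaged over the 5 populations, 12 of the 29 (41.4%) were higher and 2 (6.9%) lower in Sp3-/-, where 20.7% of all genes tested were higher and 19.8% lower, and the median log2 difference was 0.15, against 0.00. Mvk was higher by 0.71 ± 0.094 (SE, adjusted p = 1.02e-05, limma), Tm7sf2 by 0.54 ± 0.114 (adjusted p = 0.000982) and Mvd by 0.48 ± 0.0904 (adjusted p = 0.000378). With GC content and length corrected for, the median was 0.25 and Mvd was higher by 0.25 (adjusted p = 0.008). Acss2 was lower, at -0.94 ± 0.17 (adjusted p = 0.000253, or -0.62 with a pseudocount of 1), and so was Stard4, at -0.54 ± 0.071 (adjusted p = 1.04e-05). The F test of whether the Sp3 effect differed among populations was passed by 3 of the 29 (Dhcr7, Scd2 and Elovl6), where 5.27% of all genes tested passed. Dhcr7 had a log2 difference of -0.21 in ESC and 1.02 in HE1, Scd2 of -0.70 in ESC and 0.47 in progenitors, and Elovl6 of -0.42 in ESC and 0.65 in HE1. With only replicate 2 of the WT and Sp1ΔDBD/ΔDBD blast culture populations, 10 passed, and without replicate 2 of WT progenitors 5 did.

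**Figure D5:**
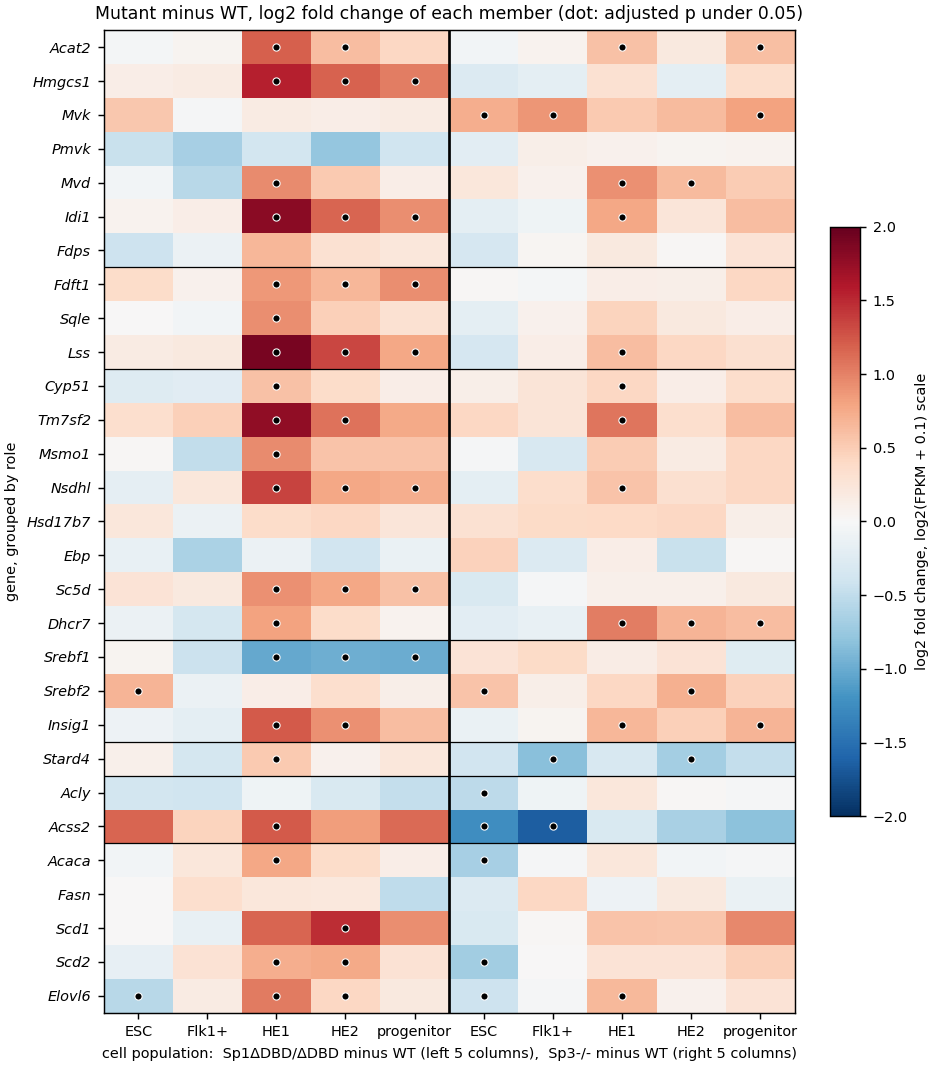
Log2 fold change of each of the 29 genes (rows, in the order of the pathway) against WT in the 5 populations, Sp1ΔDBD/ΔDBD in the left 5 columns and Sp3-/- in the right 5, on the log2(FPKM + 0.1) scale; red is higher and blue lower than WT, and dots mark an adjusted p under 0.05. The dots of Sp1ΔDBD/ΔDBD gather in HE1 (20 genes), HE2 (13) and progenitors (7), and those of Sp3-/- in HE1 (10) and ESC (7).

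The 2 mutants were also compared directly, averaged over the populations. Of the 29 genes, 13 (44.8%) were lower and 7 (24.1%) higher in Sp3-/- than in Sp1ΔDBD/ΔDBD, where 22.7% of all genes tested were lower and 20.6% higher. Acss2 was furthest apart, with a log2 difference of -1.90 ± 0.17 (adjusted p = 7.36e-08). Hmgcs1 differed by -0.81 ± 0.0828 (adjusted p = 3.56e-07) and Stard4 by -0.66 ± 0.071 (adjusted p = 6.96e-07). Srebf1 was higher in Sp3-/- by 0.84 ± 0.0724 (adjusted p = 4.57e-08), Pmvk by 0.56 ± 0.123 (adjusted p = 0.0012) and Mvk by 0.51 ± 0.094 (adjusted p = 0.000227). With GC content and length corrected for, Pmvk differed by 0.29, Mvk by 0.32 and Stard4 by -0.42, and all 3 were still called. For Acss2 in ESC the 2 mutants lay on either side of WT, at 12.3 and 7.11 FPKM in Sp1ΔDBD/ΔDBD, 4.78 and 3.58 FPKM in WT and 1.47 and 1.92 FPKM in Sp3-/-.

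The other genes of the pathway were 4 of SREBP processing (Scap, Insig2, Mbtps1 and Mbtps2), 8 further SREBP targets (Fads1, Fads2, Elovl5, Me1, Aacs, Acsl3, Tmem97 and Lpin1) and 8 of the liver X receptors (LXR), which answer high sterol, and sterol handling (Nr1h2, Nr1h3, Abca1, Abcg1, Mylip, Soat1, Npc1 and Npc2). In Sp1ΔDBD/ΔDBD HE1 1 of these 20 was higher (5.69% of all genes tested were), the desaturase Fads2, at 25.2 and 24.6 FPKM in WT and at 48.3 and 47.9 FPKM in the mutant (log2 difference 0.95, adjusted p = 0.00121). In Sp1ΔDBD/ΔDBD HE2, 1 of the 8 further targets was higher (Fads2, 0.76) and 3 were lower, Aacs (-0.65), Tmem97 (-0.74) and the phosphatidate phosphatase Lpin1 (-0.76, adjusted p = 0.00503), and the processing and LXR genes did not pass, where 4.7% of all genes tested were higher and 4.97% lower. In progenitors 1 of the 20 was lower, Lpin1 (-0.63), and 1 higher, Npc2, which moves sterol out of lysosomes (0.52), where 5.04% and 3.75% of all genes tested were. In Sp1ΔDBD/ΔDBD ESC the LXR gene Nr1h2 was higher (0.80) and Aacs (-0.75) and Tmem97 (-0.71) lower, 1 and 2 of the 20, where 2.8% and 3.26% of all genes tested were. In Flk1+ cells Abca1, which exports cholesterol (1.46), and Mylip (1.01) were higher and Lpin1 (-0.92) lower, 2 and 1 of the 20, where 2.92% and 2.62% of all genes tested were; Abca1 was at 0.0512 and 0.0493 FPKM in WT and at 0.244 and 0.396 FPKM in the mutant there, near the pseudocount.

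In Sp3-/- cells, Scap, the carrier of the SREBP precursors, was higher in ESC (log2 difference 0.65, adjusted p = 0.00918), Flk1+ cells (0.71, 0.00506), HE2 (0.61, 0.0122) and progenitors (0.50, 0.0452). Its levels were 15.6 and 14.9 FPKM in Sp3-/- ESC against 8.75 and 10.8 FPKM in WT, and 17.5 and 15.3 against 12.9 and 13.5 FPKM in HE1, so that both Sp3-/- samples were above both WT samples in HE1 too, where the test was not passed. Mbtps1, Mbtps2 and Insig2 passed in no population. The fold changes of all genes followed GC content in Sp3-/- ESC (Spearman rho 0.463), Flk1+ cells (0.338) and HE2 (0.337). The correction for GC content and the fits without 1 sample were not examined for the 20 other pathway genes. Whether their calls hold in those fits is unknown. Nr1h2 was higher in Sp3-/- ESC (0.93, adjusted p = 0.00126) and Flk1+ cells (0.79, 0.00366), and Soat1, which esterifies cholesterol for storage, was lower in both (-1.10, 0.00456 and -0.90, 0.0143), as was Npc1, the partner of Npc2 (-0.51, 0.0485 and -0.65, 0.0128). Among the 8 further targets, Fads1 (0.45) and Aacs (0.81) were higher in Sp3-/- Flk1+ cells and Fads2 (0.73) in HE1, while Lpin1 was lower in HE1 (-0.51) and HE2 (-0.56). Mylip (0.75) was higher in Flk1+ cells. Nr1h3 was listed in Sp3-/- progenitors at 0.0234 and 0.00572 FPKM, the lowest value of each of these samples, which the ESC markers Pou5f1 and Nanog also had there, against 0.504 and 0.704 FPKM in WT; it passed as lower, and no fold is given. Of the 20 genes, 2 were higher and 2 lower in Sp3-/- ESC (5.4% and 5.91% of all genes tested), 5 and 2 in Flk1+ cells (6.69% and 5.94%), and 1 and 1 in HE1 (6.02% and 4.87%), HE2 (6.97% and 6.84%) and progenitors (3.88% and 4.77%).

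Of the 29 genes, 5 passed in no population of either mutant: Ebp, Fasn, Fdps, Hsd17b7 and Pmvk. Fasn, fatty acid synthase itself, was at 92.1 and 72.4 FPKM in WT HE1, 86.8 and 106 FPKM in Sp1ΔDBD/ΔDBD HE1 and 78.2 and 74.1 FPKM in Sp3-/- HE1, and each mutant overlapped WT there. Its log2 difference in Sp1ΔDBD/ΔDBD HE1 had a 95% interval from -0.18 to 0.65, and that of Hsd17b7, a sterol ketone reductase, from -0.14 to 0.85. Scd1 and Scd2 are close copies of each other, and reads that could fall to either were divided by the default settings of the authors' tools, so the split between them is uncertain. Reads may also be shared where genes overlap: Tm7sf2 shares 532 bases with Vps51 on the same strand, and on the opposite strand Fdft1 shares 774 bases with Ctsb, Cyp51 166 with Akap9 and Srebf1 109 with Rai1, so these levels carry that uncertainty.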

How the data were processed

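Total RNA of each sample was made into ribosome-depleted stranded libraries and sequenced by the authors, who aligned the reads to mm10 with HISAT2 2.1.0 and estimated levels with StringTie 1.3.3, both with default settings. The deposited values are FPKM per gene, kept by the authors where a gene passed 1 FPKM in at least 1 sample and then quantile normalised across samples: at each rank the samples differed by at most 0.192 FPKM, so shifts in total RNA are not visible. Counts and depth are not given, and their precision cannot be stated.

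Groups came from the sample labels, with 2 samples in each of 15 groups (biological duplicates by the study's methods). Values above 1 FPKM in at least 1 sample (14525 genes) were taken as log2(FPKM + 0.1), and fold changes on this scale are understated for low genes. Group means were fitted to all 30 samples with limma 3.58.1 (R 4.3.3), with an intensity trend in the moderated variance (15 residual and 3.92 prior degrees of freedom), two-sided tests and Benjamini-Hochberg adjustment over all genes tested, with a threshold of 0.05. An exact permutation test of 2 against 2 samples cannot go below p = 0.333. The fits were checked on simulated data.

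Statistics were given by a fixed rule: called genes whose groups did not overlap, at most 3 per direction and comparison by size. Hmgcs1 in Sp1ΔDBD/ΔDBD HE1, Acat2 in Sp3-/- progenitors and genes that did not pass were added after their values were seen. The 29 genes, the other lists and the comparisons were chosen with earlier results of these data known. The 4 endoderm markers of the marker lists were not analysed here.

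WT and Sp1ΔDBD/ΔDBD samples with the same replicate number deviated together (correlations of 0.222 to 0.455 across genes in the 5 populations), so these numbers were taken to pair the samples, and a fit with the replicate number as a block was run beside the unpaired one. The other alternatives were a pseudocount of 1, no filter, each population fitted alone, a random culture term, a correction for GC content and length, and leaving out each sample. An alternative with only replicate 2 of the WT and Sp1ΔDBD/ΔDBD blast culture populations was chosen after seeing the data, because replicate 1 had the highest smooth muscle markers; a lone sample is then assumed to vary like the other groups. Promoter sequences were from RefSeq (GRCm38.p6), and gene overlaps from GENCODE M21.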

Additional observations from a re-analysis of the deposited data

Results flagged for a closer look

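For 13 genes the effect of Sp1ΔDBD/ΔDBD differed among the 5 populations by an F test in limma (adjusted over all genes tested). The adjusted p was 0.00356 for Acat2, 0.0063 for Hmgcs1, 0.0226 for Mvd and 0.00585 for Idi1 among the mevalonate and isoprenoid genes, and 0.000476 for Lss. Among the genes from lanosterol to cholesterol it was 0.0267 for Cyp51, 0.0119 for Msmo1, 0.00475 for Nsdhl and 0.024 for Dhcr7. For the regulators Srebf1 and Insig1 it was 0.0175 and 0.0165, and for the fatty acid genes Scd2 and Elovl6 it was 0.0412 and 0.000127.

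The effect of Sp3-/- differed among populations for Dhcr7 (adjusted p = 0.00682), Scd2 (0.0138) and Elovl6 (0.00527) by the same test in limma. Elovl6 was lower in ESC and higher in HE1 in each mutant, and the comparisons share their WT samples.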

How the results depend on the processing

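Two-sample groups limit every call, and the counts of called genes moved more than the fold changes. The pseudocount of 1 and the absence of a filter left all 19 counts within 1.5 times of their values, and no named difference changed sign under any alternative run. With each population fitted alone, the counts for Sp1ΔDBD/ΔDBD were 0 in ESC, 1 in Flk1+ cells, 10 in HE1, 1 in HE2 and 0 in progenitors, and for Sp3-/- 3 in ESC and 0 in HE1, HE2 and progenitors; where 0 passed in limma, 4 to 13 had an unadjusted p under 0.05. With the correction for GC content and length they were 2 in Sp1ΔDBD/ΔDBD Flk1+ cells, 4 in Sp3-/- ESC and 9 in Sp3-/- progenitors, and the Sp3 F test gave 7. The replicate block left all 15 counts it applies to within 1.5 times (20 in Sp1ΔDBD/ΔDBD HE1, 14 in HE2 and 9 in progenitors) and no named Sp1ΔDBD/ΔDBD call changed. WT and Sp3-/- samples share only a number (correlations of 0.00473 to 0.193); under the block Insig1 in Sp3-/- progenitors (adjusted p = 0.059) and Acss2 in Sp3-/- ESC (0.0501) were not called. With block and correction together the counts were 4 in Sp1ΔDBD/ΔDBD ESC, 4 in its Flk1+ cells, 16, 7 and 12 in Sp3-/- HE1, HE2 and progenitors, and 8 in the Sp3 F test. The random culture term (correlation 0.346) gave 14 for WT HE2 to progenitors. The averages over populations take the blast culture populations as independent in the main fit. With the random culture term, 16 genes were higher and 3 lower on average in Sp1ΔDBD/ΔDBD, and 10 and 2 in Sp3-/-. In Sp3-/- against Sp1ΔDBD/ΔDBD, 6 were higher and 11 lower. With only replicate 2 of the WT and Sp1ΔDBD/ΔDBD blast culture populations, the step from WT HE2 to progenitors gave 2 and the Sp3 F test 10.

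Leaving out 1 sample gave counts for Sp1ΔDBD/ΔDBD of 0 to 2 in ESC, 0 to 1 in Flk1+ cells, 17 to 18 in HE1, 7 to 15 in HE2 and 4 to 10 in progenitors. For Sp3-/- they were 0 to 3 in ESC, 0 to 3 in Flk1+ cells, 3 to 7 in HE1, 0 to 4 in HE2 and 0 to 2 in progenitors. The WT steps gave 4 to 6 from HE1 to HE2 and 2 to 8 from HE2 to progenitors, and the F tests 8 to 15 for Sp1 and 2 to 5 for Sp3. The averages over populations gave 19 to 23 for Sp1ΔDBD/ΔDBD and 12 to 15 for Sp3-/-. These fits had fewer samples, and the cause of the changes was not tested.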
